A study of Caenorhabditis elegans with 3 samples.

Results

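The genes described are the 65 nuclear tRNA genes of *Caenorhabditis elegans* annotated as tRNA-His (20 genes), tRNA-Phe (14), tRNA-Tyr (19) or tRNA-Trp (12), of 612 nuclear tRNA genes in all. They were chosen by their product in the RefSeq annotation of the assembly WBcel235, which has the same sequence as the genome build ce11, and no measured value is part of that rule. Binding of RPC-1, the largest of the subunits that make up RNA polymerase III (Pol III), was mapped by chromatin immunoprecipitation and sequencing (ChIP-seq). The single group was 3 biological replicates of whole young adult hermaphrodites of strain YL517, a transgenic line in which RPC-1 carries GFP and FLAG at its C-terminus, and the pull-down was made with an antibody against GFP. Whole animals were used, so each value is a mixture over all tissues, and the labels do not say whether an untagged copy of rpc-1 remains. Only peak lists were used here, so the read depth behind a peak is unknown. Comparisons were made between tRNA genes, within each list.

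Pol III transcribes tRNA genes from a promoter that lies inside the gene. The A box, near the 5′ end, and the B box, which covers the loop of the T arm of the tRNA, are bound by the factor TFIIIC, which brings TFIIIB and then the polymerase to the start site, and transcription ends at a run of T just after the gene. Histidine tRNA differs from other tRNAs in that an extra G is added to its 5′ end after transcription. Tyrosine tRNA genes carry a short intron beside the anticodon, which is cut out and whose exons are joined by the ligase RTCB. Several tryptophan tRNA genes of the worm, among them sup-5, sup-7 and sup-21, were first found as suppressors, in which a mutated anticodon reads a stop codon; the sequences given here are those of the reference genome.

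The sequences that distinguish the genes in the results are printed 5′ to 3′ on the strand of the gene, from the RefSeq sequence of WBcel235. Capitals mark the anticodon letters nearest to base 34 of the exons, found by letters alone. They also mark the closest match to the T-loop core of the B box, searched as GTTCNANNC. The marked cores of Y40H7A.t1 and Y113G7B.t1 each have 1 mismatch to it. C06G1.t1 (X, 16634830 to 16634901, minus strand) has the exons of the commonest histidine gene. ZC449.t1 (X, 5022817 to 5022888, minus), Y40H7A.t1 (IV, 15187344 to 15187415, plus) and B0513.t1 (IV, 13870265 to 13870336, plus) are variants of it. Y113G7B.t1 (V, 20219301 to 20219370, plus) and K01A6.t1 (IV, 11721149 to 11721236, plus) are annotated as histidine genes and are unlike the others.
C06G1.t1: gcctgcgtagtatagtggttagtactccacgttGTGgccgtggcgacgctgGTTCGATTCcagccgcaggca
ZC449.t1: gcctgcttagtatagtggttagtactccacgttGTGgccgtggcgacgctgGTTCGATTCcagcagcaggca
Y40H7A.t1: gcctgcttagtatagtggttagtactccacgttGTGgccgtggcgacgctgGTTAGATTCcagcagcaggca
B0513.t1: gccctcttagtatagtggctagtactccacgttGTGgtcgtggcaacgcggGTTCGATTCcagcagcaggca
Y113G7B.t1: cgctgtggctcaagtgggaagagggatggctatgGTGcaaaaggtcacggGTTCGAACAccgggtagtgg
K01A6.t1: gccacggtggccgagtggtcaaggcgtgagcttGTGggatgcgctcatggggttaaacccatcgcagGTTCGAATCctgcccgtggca

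For the aromatic amino acids, T28B4.t1 (X, 6593596 to 6593668, plus) has the commonest phenylalanine exons, and Y53C12A.t1 (II, 9713224 to 9713296, minus) and F32A6.t1 (X, 5319385 to 5319457, minus) have a pair of substitutions each. C02B4.t2 (X, 12665228 to 12665311, plus) has the commonest tyrosine exons and R04D3.t4 (X, 13284766 to 13284849, minus) differs from it by 1 base. R148.t1 (III, 3195439 to 3195520, plus) and F36D4.t1 (V, 9412205 to 9412291, minus) are shorter and longer at the 5′ side. In each of these tyrosine genes the intron of 11 bases follows 1 base after the anticodon. The tryptophan genes rtw-5 (X, 14228920 to 14228991, minus) and F49C5.t1 (II, 12539597 to 12539668, plus) each differ by 1 base from the exons shared by the other 10 tryptophan genes.
T28B4.t1: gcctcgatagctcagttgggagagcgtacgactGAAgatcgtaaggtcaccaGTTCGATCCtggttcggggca
Y53C12A.t1: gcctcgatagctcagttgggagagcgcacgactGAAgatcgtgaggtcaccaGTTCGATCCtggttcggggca
F32A6.t1: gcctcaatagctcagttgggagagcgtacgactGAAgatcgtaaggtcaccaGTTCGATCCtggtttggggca
C02B4.t2: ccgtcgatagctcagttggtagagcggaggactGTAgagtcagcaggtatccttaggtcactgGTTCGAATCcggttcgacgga
R04D3.t4: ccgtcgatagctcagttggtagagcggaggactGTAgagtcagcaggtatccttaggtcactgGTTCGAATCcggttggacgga
R148.t1: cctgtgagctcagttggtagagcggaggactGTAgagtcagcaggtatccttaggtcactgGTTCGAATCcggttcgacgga
F36D4.t1: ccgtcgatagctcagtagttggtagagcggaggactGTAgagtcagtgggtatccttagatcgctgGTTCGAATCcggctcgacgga
rtw-5: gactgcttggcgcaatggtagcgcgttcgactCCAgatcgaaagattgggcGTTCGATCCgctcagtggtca
F49C5.t1: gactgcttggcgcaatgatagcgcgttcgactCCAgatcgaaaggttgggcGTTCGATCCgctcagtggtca

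RPC-1 lay on most of these genes, and the histidine genes were the least complete set. A peak of the authors' reproducible list, which keeps peaks whose rank held between replicates, overlapped 58 of the 65 genes by at least 1 bp (89.2%, exact binomial 95% interval 79.1 to 95.6%). It overlapped 532 of the 547 other tRNA genes (97.3%, 95.5 to 98.5%) and 96.4% of all 612. By isotype, 16 of 20 histidine genes (80%, 56.3 to 94.3%), 12 of 14 phenylalanine genes (85.7%, 57.2 to 98.2%), 18 of 19 tyrosine genes (94.7%, 74.0 to 99.9%) and 12 of 12 tryptophan genes (100%, 73.5 to 100%) had such a peak. The intervals cover the counting of genes only, and those of the 4 isotypes overlap one another. A stricter count took the strongest 1914 peaks of each replicate's own list, the number in the reproducible list. All 3 replicates then covered 14 histidine, 13 phenylalanine, 17 tyrosine and 12 tryptophan genes, which is 56 of the 65, against 526 of the 547 other tRNA genes and 95.1% of all 612.

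Peak signal is the authors' value, set within a list, and was used for ranks. The reproducible list held 1914 peaks and its strongest had signal 9672. Among covered genes the signal ranged from 114 to 4138 for histidine (median 2279), from 1011 to 5840 for phenylalanine (2745), from 125 to 5041 for tyrosine (2955) and from 1130 to 4985 for tryptophan (3820). The median over all 58 covered genes was 2829, against 3355 for the other covered tRNA genes. The median ranks, with 1 the strongest, were 480, 406, 374 and 231.5 for the 4 isotypes in that order. In every isotype the signals of the covered genes spread over more than the distance between the isotype medians.

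**Figure D1:**
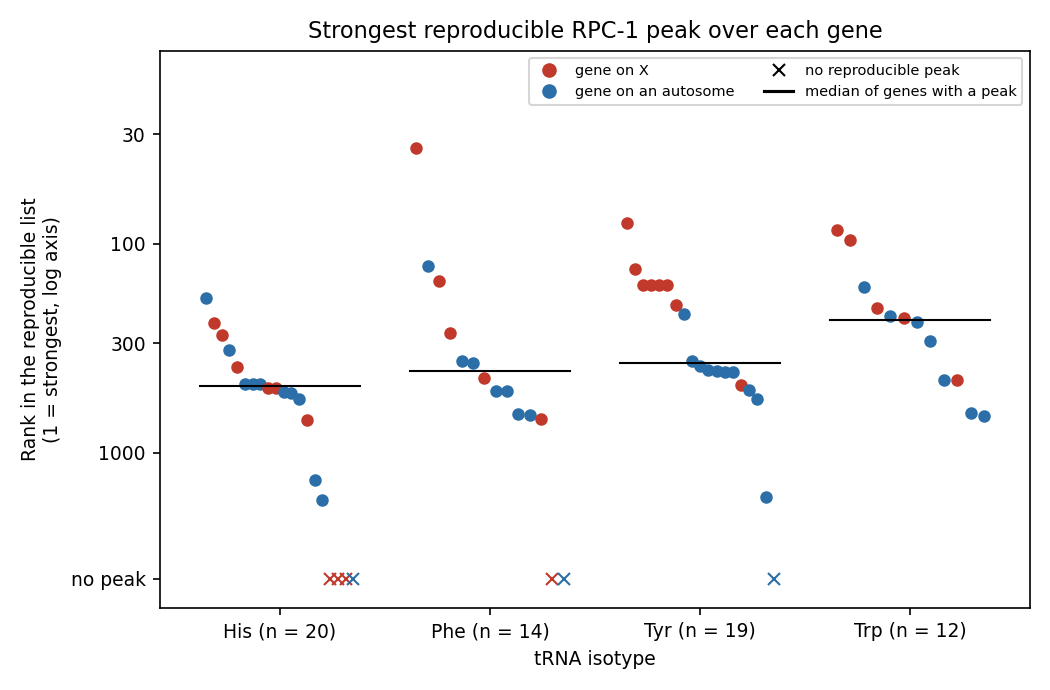
Rank of the strongest reproducible peak over each of the 65 genes, by isotype, on a log axis with rank 1 at the top. Red points are genes on the X chromosome, blue points genes on autosomes, crosses genes with no reproducible peak and lines the medians of covered genes, which run from 480 for histidine to 231.5 for tryptophan.

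The histidine gene with the highest reproducible signal was Y65A5A.t4 (IV, 16400896 to 16400967, plus), with signal 4138 and reproducible rank 182. Its strongest peak ranked 85 in replicate 1, 201 in replicate 2 and 167 in replicate 3. C06G1.t1, in an intron of C06G1.1 on the opposite strand, had signal 3769 and replicate ranks of 278, 325 and 284. ZC449.t1, in an intron of ZC449.2, had signal 3545 and replicate ranks of 373, 388 and 425. These 3 genes led the isotype in the reproducible list, but none of the 20 reached its strongest 100 peaks, whereas phenylalanine, tyrosine and tryptophan genes had best ranks of 35, 80 and 86.

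A variant of the histidine exons with G7T and C65A, counted from 1 at the 5′ end of the exons against the commonest sequence, was found in ZC449.t1, F28F8.t2, Y40H7A.t2 and Y57G11C.t1. The T-loop core is the same in these genes. Their signals ran from 2074 to 3545. Y40H7A.t1 has the same changes and C55A, which falls in the T-loop core and leaves it 1 mismatch from the search motif. Y40H7A.t1 and Y40H7A.t2 lie 239 bp apart on opposite strands under 1 interval with signal 2366, and replicate ranks of 560, 562 and 551. The stronger summit of that interval lay 27 bp before the start of Y40H7A.t2 and 408 bp from the start of Y40H7A.t1. A weaker summit, of signal 1146, lay 657 bp from the start of Y40H7A.t1, beyond both genes. When each peak was cut down to the 100 bp on each side of its summit, Y40H7A.t1 was no longer covered. B0513.t1, in an intron of prdh-1, has T4C, G5T, G7T, T19C, C38T, G45A, T50G and C65A. Its signal was 2053 and its replicate ranks were 559, 592 and 600, close to those of the genes with the plain variant.

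Of the 20 histidine genes, 6 form a cluster of 1966 bp on X (F28H6.t2, F28H6.t7, F28H6.t3, F28H6.t6, F28H6.t4 and F28H6.t5, from 14135045 to 14137010), alternating between plus and minus strands, with identical exons. RPC-1 peaks covered the ends of the cluster and not its middle. The left peak spanned F28H6.t2 and F28H6.t7 with signal 2193 and replicate ranks of 478, 511 and 373. The right peak spanned F28H6.t5 with signal 1003 and replicate ranks of 550, 590 and 603. F28H6.t3, F28H6.t6 and F28H6.t4 had no peak in the reproducible, the pooled or any replicate list. The left summit lay 69 bp from the start of F28H6.t2, and F28H6.t7 was not covered when each peak was cut down in the same way.

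The absence of peaks ran along with repeated sequence. Of the 36-base words between the first and last base of the cluster, 87.1% occurred more than once in the genome. Within 150 bp either side of each gene the share was 100% for F28H6.t3 and F28H6.t4 and 91.7% for F28H6.t6, against 61.7% for F28H6.t7, 49.6% for F28H6.t5 and 18.4% for F28H6.t2. For the 3 genes without a peak, 83.7% to 83.8% of the repeated words had all their copies within 5000 bp of the gene. The median share was 14.5% over the 65 genes and 14.5% over the other tRNA genes. The read length is not given in the sources used here, and the part of repeated sequence in the missing peaks was not tested.

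**Figure D2:**
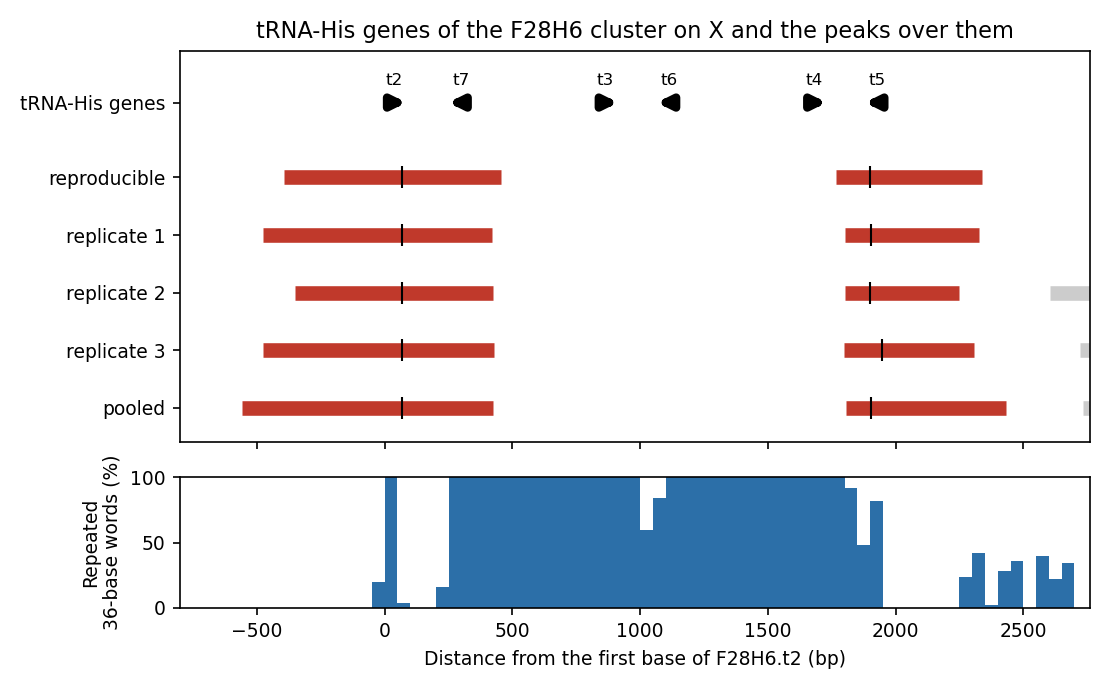
The F28H6 cluster of tRNA-His genes on X. The upper panel gives the genes as arrows in their direction and the peaks of each list as bars, red where the peak is among the strongest 1914 of its list and grey where it is weaker, with a black tick at the summit; the lower panel gives the share of 36-base words that occur more than once in the genome, in 50-bp bins, with distance from the first base of F28H6.t2 on the shared axis. All 5 lists have a left peak and a right peak and none has a peak over F28H6.t3, F28H6.t6 or F28H6.t4.

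Of the other histidine genes with the commonest exons, Y7A9D.t1 (IV, 16388456 to 16388527) had signal 3262 under an interval shared with the tRNA gene Y7A9D.t2, and the summit next to Y7A9D.t1 had signal 1931. C49F5.t1 (X, 11993521 to 11993592) had signal 2859, and W09G10.t1 (II, 3521487 to 3521558), in an intron of col-72, had 1817. A further 3 histidine genes were weak or uncovered and far from the commonest sequence. K01A6.t1, in an intron of magi-1, had no reproducible peak. Its strongest peaks ranked 2648, 13701 and 2221 in the replicates, a percentile rank of 75.3 ± 26.99 (mean ± SD, n = 3, with 100 the strongest peak of a list). This was the widest spread among the genes with a peak in every replicate list. K01A6.t1 is 88 bp long and 39 edits from the commonest histidine exons; the nearest tRNA gene by sequence was C36F7.t2, annotated as tRNA-Ile, at 16 edits, which had a peak of signal 407. Y113G7B.t1 was counted as covered through a peak of signal 203 that began 54 bp into the gene and had its summit 317 bp from the gene's start. No replicate list and not the pooled list had a peak over the gene, although each had a peak nearby with a summit 310 to 324 bp from its start. Y113G7B.t1 is 70 bp long and also 39 edits from the commonest histidine exons, against 21 from Y51A2B.t1, annotated as tRNA-Ile, whose peak had signal 255. Y17G9A.t1 (IV, 4861754 to 4861827), in a UTR exon of str-173, had signal 114, the lowest of the covered genes, and replicate ranks of 2753, 1712 and 1738. It is 11 edits from the commonest exons.

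Phenylalanine genes held both the strongest peak of the 65 and 2 genes without a reproducible peak. T28B4.t1, in an intron of fbxl-4 on X, had signal 5840 and reproducible rank 35, and ranked 90, 77 and 70 in the replicates. Y53C12A.t1 had signal 4442 and replicate ranks of 232, 299 and 294. K05G3.t1 (X, 16503144 to 16503216) had signal 4313 and replicate ranks of 144, 190 and 195. T28B4.t1 was ahead of both in each replicate. F32A6.t1, in an intron of sto-2, has G6A and C67T and had signal 3563 and replicate ranks of 357, 255 and 255. Y53C12A.t1 and Y39B6A.t9 share T27C and A43G, and Y39B6A.t9 had signal 3019. The 3 variant genes lay within the range of the genes with the commonest exons.

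The lowest covered phenylalanine genes had the same exons as T28B4.t1. ZC412.t1 (V, 14876389 to 14876461) had signal 1242 and replicate ranks of 709, 693 and 644. C06G4.t1 (III, 7978471 to 7978543) had signal 1132 and replicate ranks of 727, 797 and 723. T27B1.t1 (X, 16523923 to 16523995) had signal 1011 and replicate ranks of 771, 946 and 926. The identical genes F22B7.t3 and F22B7.t4 face each other in an intron of F22B7.9, 481 bp apart, under 1 interval of signal 2118, with replicate ranks of 515, 602 and 527. Each had a summit of its own there, of signal 2011 next to F22B7.t3 and 2118 next to F22B7.t4. Between these and the strongest genes lay Y66D12A.t1 with signal 2945 and K08B5.t1 with 2546.

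T25D1.t2 (X, 16523344 to 16523416) lies 507 bp from T27B1.t1 and has no reproducible peak over it. A reproducible peak of signal 110 ended 98 bp before its start. In the replicates, peaks over the gene ranked 1524, 1469 and 1413, so it was among the strongest 1914 peaks of each. In and around T25D1.t2, 68.3% of 36-base words were repeated in the genome, and 45.3% around T27B1.t1; the part of this in the peaks was not tested. Y95D11A.t1 (I, 10945821 to 10945893) had no reproducible peak and only a peak of rank 20375 in replicate 3. It is 5 edits from the commonest phenylalanine exons and was the only one of the 65 genes with no run of at least 4 T within 50 bp after its end.

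Tyrosine genes were covered with 1 exception, and the 7 with the highest signal lay on X. C02B4.t2, in an intron of nhr-17, had signal 5041 and replicate ranks of 119, 138 and 109. K09A11.t1 (X, 13264683 to 13264766, minus) had signal 4424 and replicate ranks of 229, 252 and 223. R04D3.t4, with C67G, had signal 4062 and replicate ranks of 219, 204 and 232. These values varied little between replicates. A cluster of 4 identical genes on X (R11.t4, R11.t3, R11.t2 and R11.t1, from 16208263 to 16209852, all minus) lay under 1 interval of signal 4286, with replicate ranks of 142, 102 and 128. That interval also holds the microRNA genes mir-2212 and mir-1819, and it had 5 summits. Counted from each gene's start, the nearest reproducible summit had signal 4286 for R11.t1, 2225 for R11.t4, 629 for R11.t2 and 283 for R11.t3, and the fifth summit, of signal 1674, lay just past the end of R11.t3. The pooled list had a summit of signal 1847 at 32 bp before the start of R11.t3, and the replicate lists had one 29 to 32 bp before it, of ranks 496, 506 and 492. The value of the whole interval was that of the summit next to R11.t1.

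Among the other tyrosine genes, C06B8.t2 (V, 15480694 to 15480777) had signal 2131 and replicate ranks of 407, 345 and 328, and it shares its interval with the tRNA gene C06B8.t1. C06B8.t2 and C16D9.t4 carry A49G and T65C, ZK1067.t1 carries C2A with both of these, and F31E9.t1 carries G27C. F56F4.t1, in an intron of pept-3 on chromosome I, had signal 3956 under an interval shared with the tRNA gene F56F4.t2, and F56F10.t1, in an intron of lgl-1, was the lowest tyrosine gene on X at 2342. F31E9.t1 (V, 17317879 to 17317962) had signal 1840 and replicate ranks of 563, 662 and 632. The 5 genes with 1 to 3 edits had signals of 1840 to 4062, against 2342 to 5041 for the 12 with the commonest exons. Those 12 include the R11 genes, each at the 4286 of their shared interval. R148.t1, which lacks bases near its 5′ end, had signal 125 and replicate ranks of 2925, 2099 and 1930, outside the strongest 1914 peaks of every replicate. F36D4.t1, in an intron of F36D4.4, is 87 bp long with extra bases in the 5′ part, and had no reproducible peak; a peak over it ranked 3924 in replicate 1 and none was listed in replicates 2 and 3.

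All 19 tyrosine genes had an intron of 11 bp, and 10 of the 547 tRNA genes of other amino acids had an intron of any length. The introns varied more than the exons, with 9 different sequences among the 19 genes. The commonest, agtcagcaggt, was found in 8 genes, whose signals ran from 125 in R148.t1 to 5041 in C02B4.t2. The intron agtcagtgggt was found in C06B8.t2, C16D9.t4 and F36D4.t1, and the intron agttagcaggt in T22F7.t1 and Y43F4A.t1 (signals 2800 and 2718). The intron agtcagcgggt was found in K09A11.t1, agtcagtggtt in ZK1067.t1, agttagcagat in F31E9.t1, agttggcagat in C18D4.t1 and agtttgcagat in C47E8.t1.

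Tryptophan genes were all covered and had the highest median of the 4 isotypes. The strongest, rtw-5 with G45A, had signal 4985 and replicate ranks of 105, 115 and 116. The suppressor gene sup-7 (X, 6371378 to 6371449), in an intron of C03B1.2, had signal 4875 and replicate ranks of 179, 185 and 229. The suppressor gene sup-5 (III, 8678497 to 8678568), in an intron of fli-1, had signal 4254 and replicate ranks of 196, 206 and 189. In the replicates, sup-21 ranked ahead of both at 153, 157 and 139, with reproducible signal 3867. The exons of sup-5, sup-7 and sup-21 are identical. The suppressor genes sup-33 and sup-28, also with these exons, lie 857 bp apart in trk-1 on X with separate reproducible peaks: sup-33 had signal 4018 and replicate ranks of 265, 257 and 300, and sup-28 had signal 2460 and replicate ranks of 388, 410 and 427.

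Y95B8A.t1 (signal 3897), sup-24 (3774), rtw-6 (3456) and Y4C6B.t2 (2469), with the same exons again, fell between these. At the other end, sup-29 (IV, 3681880 to 3681951) had signal 1130 and replicate ranks of 631, 703 and 746, with the same exons as sup-7. F49C5.t1, in an intron of nimk-1, had signal 1299 and replicate ranks of 779, 795 and 772. Its G18A falls in the D arm, and it was among the 3 of the 65 genes in which the A box was not found, searched within the first bases as TNGNNNANNGG with or without 1 further base before the GG. Its percentile rank was 97.0 ± 0.379 over the 3 replicates, the widest SD among tryptophan genes, although its ranks were close. A percentile also depends on list length: it was 96.8, 96.8 and 97.4 in lists of 24159, 24539 and 29975 peaks. Thus covered genes with identical exons spread from signal 1130 to 4875 in tryptophan, from 1011 to 5840 in phenylalanine, from 2342 to 5041 in tyrosine and from 1003 to 4138 in histidine. Genes under 1 interval share its value in these ranges. The R11 tyrosine genes thus all count at 4286, although their nearest summits ran from 283 to 4286. The low ends in phenylalanine and histidine were T27B1.t1 and F28H6.t5, with 45.3% and 49.6% repeated words. The part of repeated sequence in this spread was not tested. F28H6.t3, F28H6.t6, F28H6.t4 and T25D1.t2, which have these exons and no reproducible peak, are outside the ranges.

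Genes whose exons lay far from every other gene of the same product were weak or uncovered, with the exception of B0513.t1. Of the 65 genes, 51 had exons identical to another gene of the product, and 47 of these were covered, with a median signal of 2945. A further 7 had 1 to 3 edits to the nearest such gene, and all 7 were covered (median 2750). The last 7 had at least 4 edits (B0513.t1, F36D4.t1, K01A6.t1, R148.t1, Y113G7B.t1, Y17G9A.t1 and Y95D11A.t1); 4 were covered, with signals of 114, 125, 203 and 2053. Of the other tRNA genes, 428 of 431 at 0 edits, 73 of 75 at 1 to 3 edits and 26 of 35 at 4 or more edits were covered, with a median of 1337 in the last class. The remaining 6 of the 547, with no product named or no other gene of the product, were not classed, and 5 of them were covered. These classes were drawn after the values had been seen and were not tested. Of the 7 uncovered members, 4 had more than 50% repeated words (F28H6.t3, F28H6.t6, F28H6.t4 and T25D1.t2) and the other 3 had at least 4 edits. Of the 15 uncovered genes of other isotypes, 3 had more than 50% repeated words, 9 had at least 4 edits and 3 had neither. Repeated words did not go with a missing peak everywhere: of the genes with more than 50%, 1 of 5 members (F28H6.t7), 9 of 12 other tRNA genes and 10 of all 17 were covered.

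**Figure D3:**
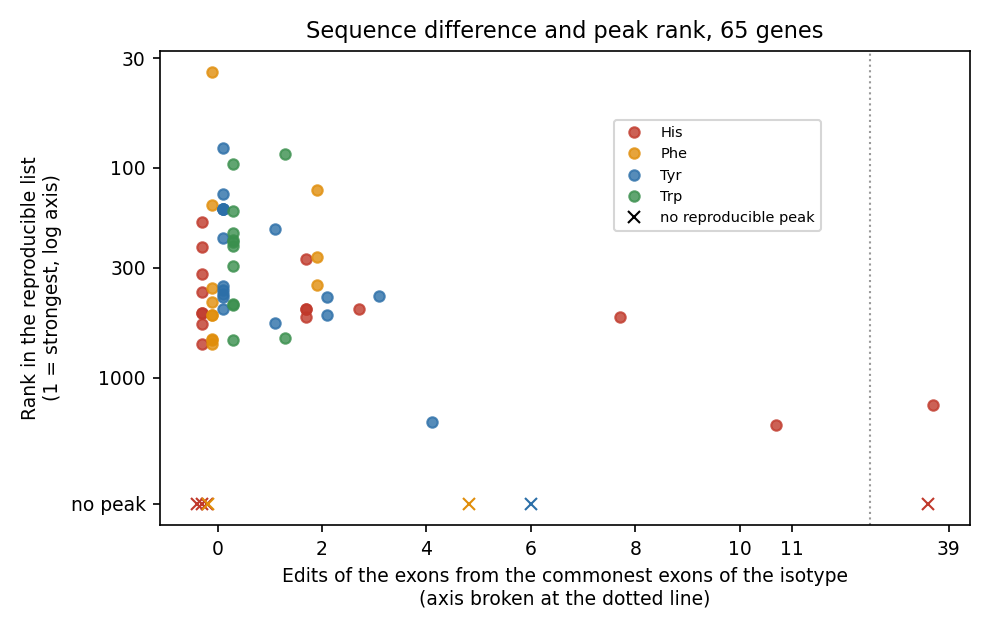
Edits of each gene's exons from the commonest exons of its isotype, against the rank of its reproducible peak on a log axis with rank 1 at the top; points are set slightly apart by isotype and crosses are genes with no reproducible peak. The crosses at 0 edits are F28H6.t3, F28H6.t6, F28H6.t4 and T25D1.t2, which partly overlap; of the genes at 4 or more edits, B0513.t1 at 8 edits has the best rank.

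The isotypes were then compared over the replicates by the median percentile rank of genes with a peak in each list, 100 being the strongest peak. Histidine genes had 98.02 in replicate 1, 97.87 in replicate 2 and 98.30 in replicate 3 (mean 98.06 ± 0.219, SD, n = 3). Phenylalanine genes had 98.51, 98.35 and 98.36 (98.40 ± 0.0913), tyrosine genes 98.41, 98.58 and 98.87 (98.62 ± 0.230) and tryptophan genes 98.94, 98.76 and 98.98 (98.90 ± 0.120). The other tRNA genes had a mean of 98.79 ± 0.133. These SDs include the difference in length between the lists. The median ranks in replicates 1, 2 and 3 were 478.5, 524.5 and 511 for histidine and 361, 407 and 493 for phenylalanine. Replicate by replicate, histidine was the lowest of the 4 and tryptophan the highest, and phenylalanine and tyrosine changed places between replicates 1 and 2.

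The histidine median minus that of the aromatic genes together was −0.497, −0.687 and −0.581 percentile points in replicates 1, 2 and 3 (mean −0.588 ± 0.0952, n = 3), so histidine was lower in 3 of 3. An exact two-sided sign-flip test over the 3 replicates gave p = 0.25, the smallest it can give with 3 replicates, so this design cannot pass 0.05. All 65 genes together were below the other tRNA genes by a mean of −0.293 ± 0.0343. Against the other tRNA genes the mean difference was −0.730 ± 0.115 for histidine (a comparison added after the data had been seen), −0.388 ± 0.196 for phenylalanine, −0.176 ± 0.109 for tyrosine and 0.103 ± 0.119 for tryptophan. Each was of 1 sign in 3 of 3 replicates (exact sign-flip p = 0.25 each), and the tryptophan difference was within 1 SD of 0. Without replicate 1 the tryptophan difference was 0.0345 and the tyrosine difference −0.116. With peaks cut down to 100 bp on each side of the summit, the phenylalanine difference was −0.198 and the tryptophan difference 0.253. With each peak counted once the difference was −0.664 for histidine, −0.264 for phenylalanine, −0.217 for tyrosine, 0.169 for tryptophan and −0.239 for all 65 genes. A reproducible peak shared with another tRNA gene lay over 182 of the 547 other tRNA genes and 14 of the 65. As the mean of X and autosomes the tryptophan difference was 0.195, and with uncovered genes set to percentile 0 the phenylalanine difference was −0.608. Of the 6 pairs of isotypes, histidine minus tryptophan was the largest in size (−0.833 ± 0.128) and phenylalanine minus tyrosine the smallest (−0.213 ± 0.304, of 1 sign in 2 of 3 replicates, exact p = 0.5). The Benjamini-Hochberg adjusted exact p over the 6 pairs was 0.5 for that pair and 0.3 for the others.

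Among the 20 isotypes with at least 5 genes, histidine was in place 20, the lowest, in each of the 3 replicates and in reproducible signal. By mean percentile rank the neighbours just above it were proline at 98.16 ± 0.281, asparagine at 98.23 ± 0.149 and isoleucine at 98.33 ± 0.173. Proline and asparagine lay within 1 SD of the histidine mean, but that SD is over the lists and not of the difference within a list. In replicates 1, 2 and 3 proline had 98.1, 97.92 and 98.47 and asparagine 98.12, 98.15 and 98.40, against 98.02, 97.87 and 98.30 for histidine. Phenylalanine was in place 16, tyrosine in place 15 and tryptophan in place 7. Histidine also had the lowest share of covered genes among these isotypes, 80%, with phenylalanine next at 85.7% and methionine at 90%. The uncovered histidine genes were F28H6.t3, F28H6.t6 and F28H6.t4, of 1 cluster with repeated sequence, and K01A6.t1, at 39 edits from the commonest exons.

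**Figure D4:**
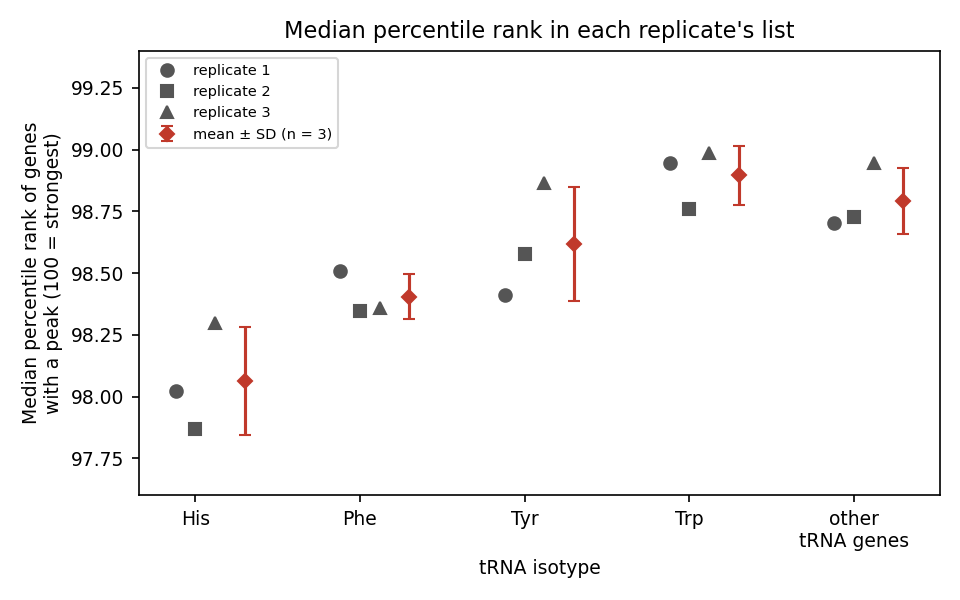
Median percentile rank of genes with a peak, in the peak list of each replicate (grey symbols), with the mean ± SD of the 3 replicates (red), for the 4 isotypes and the other tRNA genes. Histidine is the lowest of the 5 groups in every replicate, at 98.06 ± 0.219, and tryptophan the highest, at 98.90 ± 0.120.

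In each isotype the genes with a peak had a higher median percentile rank on X than on autosomes. Genes without a peak are left out of these medians. Reproducible peaks covered 6 of 9 histidine genes on X and 10 of 11 on autosomes. The counts were 5 of 6 and 7 of 8 for phenylalanine, 8 of 8 and 10 of 11 for tyrosine, and 5 of 5 and 7 of 7 for tryptophan. They were 243 of 248 and 289 of 299 for the other tRNA genes. For tyrosine the median percentile rank was 99.50 ± 0.0807 on X and 98.37 ± 0.131 on autosomes, a difference of 1.13 ± 0.0560 (n = 3). The difference was 0.772 ± 0.290 for phenylalanine, 0.478 ± 0.176 for tryptophan and 0.418 ± 0.174 for histidine. It was positive in 3 of 3 replicates for each (exact sign-flip p = 0.25, the smallest possible), and it was also found in the other tRNA genes, at 0.820 ± 0.127. In tyrosine, 4 of the 8 genes on X are the R11 genes under 1 interval, whose signal of 4286 is the median on X. With each peak counted once, a setting added after the data had been seen, the difference was 0.806 ± 0.0502 for tyrosine, 0.502 ± 0.191 for phenylalanine, 0.478 ± 0.176 for tryptophan, 0.455 ± 0.221 for histidine and 0.874 ± 0.142 for the other tRNA genes, again positive in 3 of 3 replicates. The tyrosine difference was thus above that of the other tRNA genes gene by gene and below it peak by peak. In reproducible signal the medians on X and on autosomes were 4286 and 2734 for tyrosine, 3563 and 2118 for phenylalanine, 4018 and 3456 for tryptophan and 2526 and 2219 for histidine. X carries 9 of the histidine, 6 of the phenylalanine, 8 of the tyrosine and 5 of the tryptophan genes, 43.1% of the 65, against 45.3% of the other tRNA genes. Tyrosine lay below the other tRNA genes over all chromosomes, but when the differences on X and on autosomes were averaged the tyrosine difference was 0.120. With each peak counted once and all chromosomes together, the tyrosine difference was −0.217. The sign of the tyrosine difference thus varied between settings, and the cause was not tested.

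In the reproducible list the summit nearest to a gene mostly lay just inside its start. Its median distance from the first base of the gene, on the gene's own strand, was 14 bp for histidine (n = 15 genes with a summit within 300 bp), 15 bp for phenylalanine (n = 13), 13.5 bp for tyrosine (n = 18), 13 bp for tryptophan (n = 12) and 13 bp for the other tRNA genes (n = 525). In the replicate lists the histidine medians were 18.5, 40.5 and 21 bp (mean 26.7 ± 12.05, SD, n = 3), against means of 15.5 ± 1.80 bp for phenylalanine, 17.2 ± 2.02 bp for tyrosine, 17 ± 3.5 bp for tryptophan and 18 ± 1.73 bp for the other tRNA genes. The upper quartile in the reproducible list was 65.5 bp for histidine, 18 bp for phenylalanine, 16.25 bp for tyrosine and 14.25 bp for tryptophan. Isolated genes were those over 1000 bp from any other tRNA gene. Among them the histidine summits of the reproducible list ran from 8 to 23 bp (n = 8, median 12 bp). The tryptophan summits ran from 8 to 19 bp (n = 10, median 13.5 bp). Among isolated genes with a reproducible summit within 300 bp the farthest was that of R148.t1, at 33 bp. The isolated gene Y113G7B.t1 had its summit outside this window, at 317 bp. Within the window, reproducible summits more than 60 bp away belonged to genes with a tRNA gene close by, such as F28H6.t7 at 265 bp, T27B1.t1 at 125 bp and R11.t3 at −95 bp. In the replicate lists isolated genes had such summits too. In replicates 1, 2 and 3 they lay at 66, 66 and 66 bp for C49F5.t1 and at 63, 96 and 62 bp for rtw-5.

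**Figure D5:**
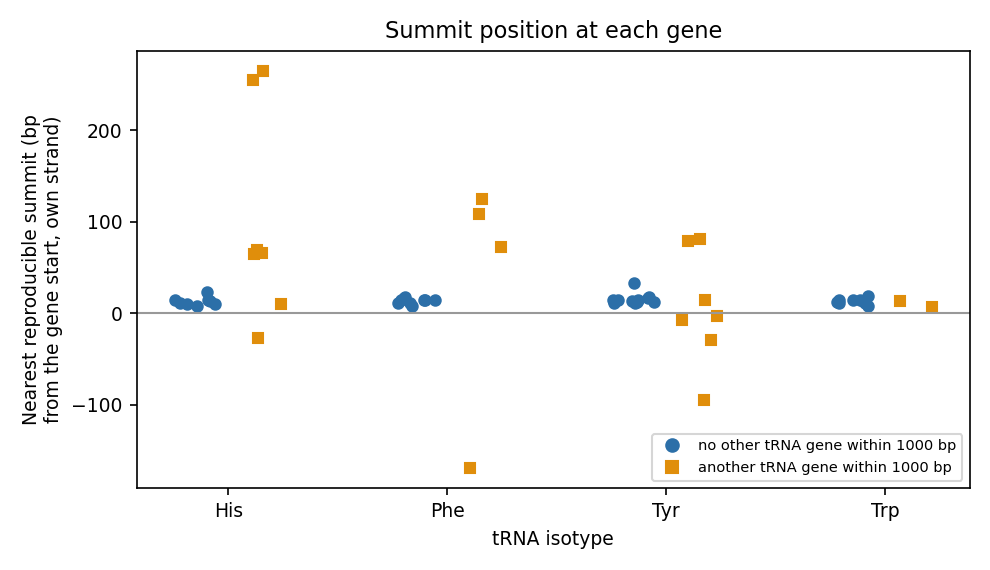
Distance of the nearest reproducible summit within 300 bp from the first base of each gene, in bp on the gene's own strand, for isolated genes, over 1000 bp from any other tRNA gene (blue circles), and for genes with a neighbour nearer than that (orange squares); horizontal scatter only separates points. The isolated genes shown lie between 8 and 33 bp inside the gene; Y113G7B.t1, with its summit at 317 bp, is outside the window.

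In the share of genes with each sequence motif, the 65 genes were close to the other tRNA genes. The T-loop core was found without a mismatch in 63 of the 65 genes (96.9%), against 95.8% of the other tRNA genes and 95.9% of all; the exceptions were Y40H7A.t1 and Y113G7B.t1. The A box pattern was found in 62 of 65 (95.4%), against 91.8% of the others and 92.2% of all, and was not found in Y17G9A.t1, F36D4.t1 and F49C5.t1. A run of at least 4 T followed within 50 bp in 64 of 65 (98.5%), against 98.9% of the others, at a median of 5 bp in both. A match is a description of the letters and not of binding. In position, 36 of the 65 genes were intergenic, 28 lay in introns of protein-coding genes and 1 in a UTR exon; 31 of the intergenic (86.1%) and 26 of the intronic genes (92.9%) were covered, against 276 of 282 (97.9%) and 247 of 256 (96.5%) of the other tRNA genes. Of the 55 genes with a reproducible peak and a place among the strongest 1914 of every replicate, the percentile ranks lay between 96.6 and 99.7, and the SD over replicates had a median of 0.198.

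Genes of enzymes that act on tRNAs of these amino acids were looked at as a separate list. The aminoacyl-tRNA synthetase genes were hars-1 for histidine and fars-1, fars-2 and fars-3 for phenylalanine. Those for tyrosine were yars-1 and yars-2, those for tryptophan wars-1 and wars-2, and the ligase gene was rtcb-1. Of these 9 symbols 8 were found in the annotation, wars-2 being the exception. None of the 8 had a reproducible RPC-1 peak within 250 bp of a start site, and 1.58% of protein-coding genes (316 of 19971) had one. The nearest reproducible summit lay 1333 bp from a start site of fars-1, 7637 bp from rtcb-1 and 166889 bp from hars-1. In the replicate lists, which hold weak peaks too, hars-1 had peaks of ranks 2530, 2718 and 5630, outside the strongest 1914 in each.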

How the data were processed

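The authors deposited, per the file lists, a peak list for each of 3 replicates, a list for the pooled replicates and a reproducible list, filtered by how well ranks held between replicates (irreproducible discovery rate); the ce11 lists were used. No aligner, peak caller or setting is named in these sources. The deposited signal of a peak is the caller's own value and was used to rank and describe peaks within a list. The deposited −log10 q value is constant in the reproducible list and was not used. The nuclear replicate lists held 24159, 24539 and 29975 peaks and weak peaks too, so they were used by rank, as the percentile within the list. A percentile depends on the length of the list as well as on the rank, so its SD over replicates includes the difference in length. No reproducible peak matched a peak of another list in both interval and summit, and the call behind it is not known. Read depth is unknown, and the control was not analysed here.

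Genes, introns and sequences came from the RefSeq annotation of WBcel235. A gene sharing at least 1 bp with a peak was covered, and its strongest such peak was taken; genes under 1 interval share a value. Repeated sequence was counted as 36-base words with more than 1 copy in the genome. Edits are the smallest number of substitutions, insertions and deletions (edlib). Differences between isotypes were taken within each replicate and tested by exact two-sided sign-flip permutation. The labels call the samples biological replicates. Named genes were those without a reproducible peak, the 3 highest and 3 lowest covered of each isotype, sequence variants, the gene of each isotype with the widest replicate spread and genes sharing a peak. The remaining genes were named to account for all 65. The 4 isotypes and the enzyme list were picked for description with earlier results of these data known; within the isotypes, membership follows the annotation alone. Python 3.11.15, pandas 2.3.3 and scipy 1.17.1 were used, and the overlap and rank steps were tested on simulated peaks.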

Additional observations from a re-analysis of the deposited data

How the results depend on the processing

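Coverage of each isotype was recounted with the pooled list cut at its strongest 1914 peaks and with the strongest 957 reproducible peaks. It was also recounted with peaks cut down to 100 bp on each side of the summit and with peaks spanning the whole gene. For each pair of replicates, a covered gene also had to lie under one of the strongest 1914 peaks of both. The replicate left out still entered through the reproducible list, so coverage was not recounted from 2 replicates alone. All 28 shares stayed within the exact intervals of the reported ones. These intervals are wide, and in every setting except the pooled list a count could only fall or stay. The histidine count ran from 13 to 15 of 20, with Y113G7B.t1 lost each time, and over the pairs of replicates from 14 to 15. Rank differences without 1 replicate could not turn, because each comparison had 1 sign in 3 of 3 replicates. Of 54 recomputed rank differences, these included, 53 kept their direction. The exception was tyrosine minus other tRNA genes, which was −0.176 over all genes and 0.120 as the mean of X and autosomes, a setting added after the data had been seen; the cause was not tested. Summit medians as the mean of the replicate lists moved for histidine (26.7 bp), tyrosine (17.2 bp) and tryptophan (17 bp), by more than the SD of the replicates; the cause was not tested. No paired analysis was possible because the 3 replicates form 1 group, so no replicate numbers are shared between groups; the rank differences were already taken within each replicate. The lists hold no read counts, peaks merge neighbouring genes, and 3 replicates cannot give an exact p below 0.25.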
